A study of Homo sapiens with 15 samples.

Results

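Transcripts of 9 genes of the NF-kB system were followed in PSN-1, an established line of human pancreatic ductal adenocarcinoma (PDAC) cells. They were 4 NF-kB subunit genes (NFKB1, NFKB2, RELA and RELB), 3 inhibitor genes (NFKBIA, NFKBIE and TNFAIP3) and the paired genes BIRC2 and BIRC3. They were chosen by symbol, and all 9 were found among the 26485 symbols of each deposited count table and passed the filter on low counts in every fit. They were named with earlier results of these data known, and the choice itself mentions that BIRC3 moves in opposite directions after the 2 knockdowns. The siRNA values of BIRC3 are therefore given here as a description, without a test.

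In the first experiment PSN-1 cells were transfected for 72 hours with siControl, with siMondoA (against MLXIP, the gene of the nutrient-sensing transcription factor MondoA) or with siMLX (against MLX, its DNA-binding partner). The second experiment compared 72 hours of the solvent DMSO with 72 hours of SBI-477, a compound labelled as a MondoA inhibitor. Each of the 5 groups had 3 libraries, 15 in all, and all come from 1 cell line. There was no rescue arm, and neither the siRNA sequences nor the drug dose is given in the sources used here. The labels do not state whether replicates were separate cultures, and p-values measure only the spread between libraries, which can be technical.

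As background, NF-kB is a family of dimeric transcription factors made from the products of NFKB1, NFKB2, RELA, RELB and REL. Inhibitor proteins of the IkB family, among them the products of NFKBIA and NFKBIE, hold the dimers in the cytoplasm until the IKK kinase complex marks them for degradation. NFKB2 and RELB serve the non-canonical branch, in which receptors such as TNFRSF12A and LTBR lead to processing of the NFKB2 precursor. TNFAIP3 is a ubiquitin-editing enzyme that ends signalling from TNF receptors, and BIRC2 and BIRC3 encode related ubiquitin ligases (inhibitor of apoptosis, IAP) that act at those receptors and restrain the non-canonical branch. NFKBIA, TNFAIP3, NFKB2, RELB and BIRC3 are known targets of NF-kB itself, which makes their transcripts common readouts of the pathway.

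The promoter sequences are shown because the members that moved furthest in the siRNA libraries are textbook NF-kB targets. RefSeq windows (GRCh38.p14) from 250 bases before to 50 bases after a start site were found for 7 of the 9 genes, 12 windows in all, and not for RELB and NFKBIE. Both strands were searched for the kB consensus and for the E-box CACGTG, the core of the sites that the MondoA:MLX pair binds. The kB consensus matched in 5 of the 7 genes (NFKB1, NFKB2, NFKBIA, TNFAIP3 and BIRC3), against 7.09% of the 27167 genes with a window. It had no match in the windows of RELA and BIRC2. By window it matched in 6 of 12, against 5.9% of 34943 windows. NFKB2, NFKBIA, TNFAIP3 and BIRC3 were known NF-kB targets when the genes were chosen, so these shares are a description and no test. The E-box matched in TNFAIP3 alone, at positions -78 to -73 from its start and apart from its kB matches, against 8.74% of all genes. An exact paired E-box, 2 copies of CACGTG with 5 bases between them, matched in 0 of the 7 genes and in 2 of all 27167. A match is a description of letters in this window and not a measured site. In the stretches below, written 5′ to 3′ on the gene's strand, capitals mark kB consensus matches. Stretches end before the gene's first GENCODE v29 exon, or are cut to 30 bases where the matches lie in such an exon.
BIRC3: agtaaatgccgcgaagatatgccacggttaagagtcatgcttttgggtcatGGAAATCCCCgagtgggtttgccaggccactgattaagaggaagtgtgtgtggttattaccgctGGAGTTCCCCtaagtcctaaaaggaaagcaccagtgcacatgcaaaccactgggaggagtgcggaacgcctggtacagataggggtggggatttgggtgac
NFKBIA: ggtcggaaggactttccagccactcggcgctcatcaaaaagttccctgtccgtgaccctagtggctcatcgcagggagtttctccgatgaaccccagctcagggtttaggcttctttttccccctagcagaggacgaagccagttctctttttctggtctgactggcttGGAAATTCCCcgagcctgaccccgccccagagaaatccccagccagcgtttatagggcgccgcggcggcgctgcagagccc
TNFAIP3: ctttGGAAAGTCCCgtGGAAATCCCCgggc
NFKB2: tcatGGGAATTCCCCcctccggggggccga
NFKB1: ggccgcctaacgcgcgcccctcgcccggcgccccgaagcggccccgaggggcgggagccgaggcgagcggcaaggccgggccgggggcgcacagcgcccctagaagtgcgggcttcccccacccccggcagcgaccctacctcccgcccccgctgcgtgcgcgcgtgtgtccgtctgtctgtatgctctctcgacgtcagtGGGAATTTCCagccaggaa
BIRC2: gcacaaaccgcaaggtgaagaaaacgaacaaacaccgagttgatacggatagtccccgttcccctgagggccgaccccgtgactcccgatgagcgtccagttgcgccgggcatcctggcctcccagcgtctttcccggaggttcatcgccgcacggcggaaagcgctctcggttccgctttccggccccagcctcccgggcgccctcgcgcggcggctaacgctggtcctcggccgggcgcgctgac

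These stretches lie at chr11:102317234-102317449 (BIRC3, plus strand), chr14:35404750-35404999 (NFKBIA, minus), chr6:137867188-137867217 (TNFAIP3, plus), chr10:102394467-102394496 (NFKB2, plus), chr4:102501109-102501328 (NFKB1, plus) and chr11:102346964-102347210 (BIRC2, plus). In NFKB2 the capitals are a pair of matches that overlap, and the same window held another match at positions -78 to -69 from the start. BIRC3 and BIRC2 are neighbours on chromosome 11 in the same orientation: BIRC3 spans 102317450 to 102339403 and BIRC2 102347211 to 102378670 (GENCODE v29, GRCh38). BIRC3 held 2 matches, at positions -199 to -190 and -135 to -126.

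**Figure D1:**
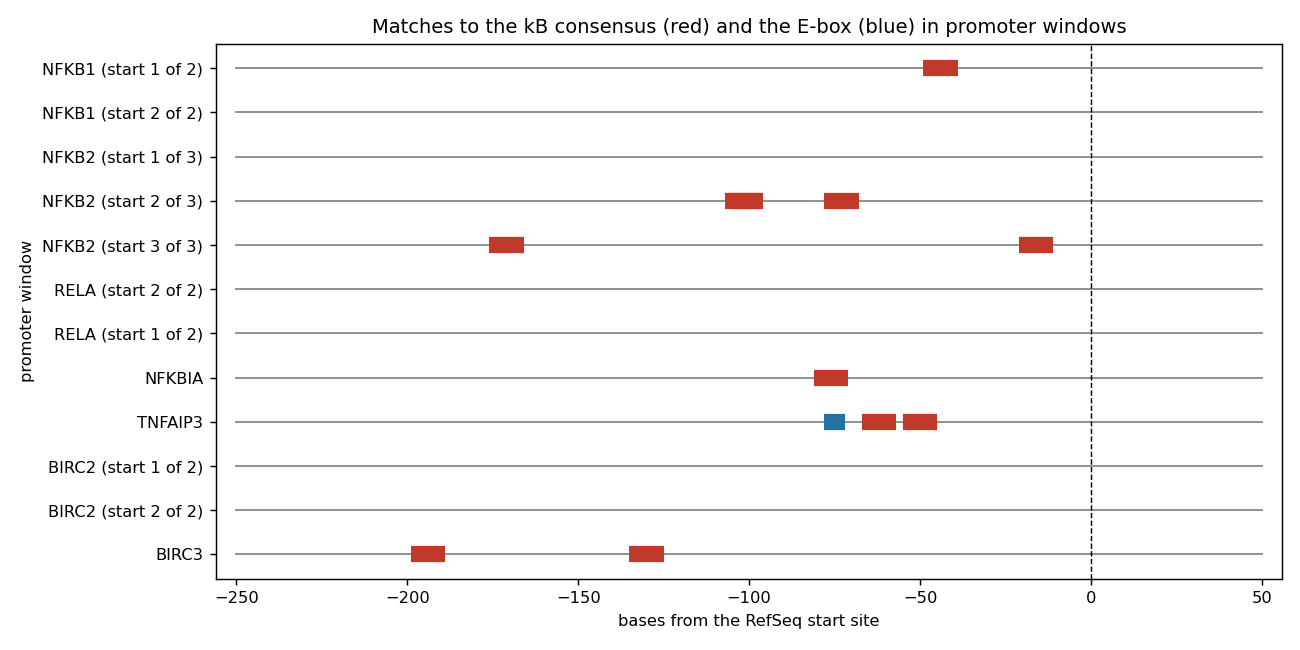
Position of kB consensus matches (red) and of the E-box (blue) in 12 RefSeq promoter windows of 7 of the genes; the x axis is the distance in bases from the start site and each line is a window. Matches stand in windows of NFKB1, NFKB2, NFKBIA, TNFAIP3 and BIRC3, and none in those of RELA and BIRC2.

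Levels below are CPM, the counts of a gene scaled to a common library size by TMM, in the order of replicates 1, 2 and 3. The siRNA libraries held 11227343 to 14731691 counts and the drug libraries 23315440 to 30480362, so that 3 counts correspond to 0.204 to 0.267 and 0.0984 to 0.129 CPM. MLXIP had 65.8 to 88.7 CPM in the siControl libraries against 15.7 to 23.4 CPM in siMondoA, and MLX had 53.0 to 58.8 CPM against 7.15 to 11.9 CPM in siMLX. In each case every library with the siRNA lay below every control. The library siMLX replicate 2 stood apart from the other siMLX libraries, with TXNIP, the best known MondoA target, at 511 CPM against 172 and 93.3 CPM. MLX itself was at 11.9, 7.15 and 7.70 CPM in siMLX replicates 1, 2 and 3, and so was lowest in replicate 2. In the drug experiment TXNIP was at 145, 39.2 and 204 CPM in DMSO and at 74.6, 121 and 41.5 CPM in SBI-477. The authors' deposited table of log2 fold changes for SBI-477 came closest to these counts with the libraries labelled DMSO replicate 2 and SBI-477 replicate 2 exchanged (median absolute difference 0.00446 over 13086 genes, against 0.195 with the labels as given). Libraries keep their labels here, and drug results are given with and without that pair. All 7 epithelial markers were detected, with summed levels of 1427 to 2805 CPM per library. PTPRC, CD3E and CLDN5, defining markers of leukocytes, T cells and endothelium, were under 3 counts in every library. Other markers of the same lists, PECAM1 of endothelium and CD14, CD68 and LYZ of leukocytes, were detected in every library. The 4 endothelial markers summed to 8.58 to 20.8 CPM per library and the 7 leukocyte markers to 51.5 to 101 CPM.

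Knockdown of MondoA was accompanied by higher transcript levels across the group. In each of the 8 genes other than BIRC3 the lowest siMondoA library lay above the highest siControl library, which held for 24.4% of the 13001 genes tested in this direction. Of these 8 genes 7 rose at an edgeR adjusted p under 0.05, against 14.2% of all genes tested. In bulk RNA, fewer cells of a type and less RNA per cell cannot be told apart. The median log2 fold change of these 8 was 0.86, and that of all genes 0.00.

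Among the subunits, the non-canonical pair moved furthest. NFKB2 had 25.9, 27.8 and 24.3 CPM in siControl, against 53.9, 82.7 and 76.8 CPM in siMondoA. Every siMondoA library held more NFKB2 than every control, and the log2 fold change was 1.45 ± 0.31 (SE, edgeR adjusted p = 0.00912). RELB, the usual partner of the NFKB2 product, went from 16.2, 16.5 and 13.9 to 32.8, 61.7 and 55.2 CPM. Replicate 1 was the lowest siMondoA library in RELB as in NFKB2, and the log2 fold change of RELB was 1.68 ± 0.43 (edgeR adjusted p = 0.0172). NFKB1, whose product pairs with that of RELA in the canonical dimer, went from 37.4, 39.9 and 39.9 to 59.7, 63.8 and 77.5 CPM (0.78 ± 0.20, edgeR adjusted p = 0.0172). RELA, the main transactivating subunit, went from 60.0, 49.2 and 53.9 to 70.9, 90.1 and 82.5 CPM (0.58 ± 0.13, edgeR adjusted p = 0.0109). The controls of NFKB1 lay close together, whereas RELA had the smallest log2 fold change of the 4 subunits.

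The inhibitors split by gene. TNFAIP3 had 8.44, 14.2 and 11.4 CPM in siControl, against 54.2, 38.9 and 59.4 CPM in siMondoA, with a log2 fold change of 2.16 ± 0.44 (edgeR adjusted p = 0.00752). NFKBIE, the scarcest transcript of the 3, was at 3.64, 3.72 and 3.52 CPM and at 6.80, 6.68 and 7.53 CPM (0.95 ± 0.21, edgeR adjusted p = 0.0107). Its values within each group were tight, and the groups were well apart. NFKBIA, the classical feedback inhibitor, had 106, 124.0 and 93.2 CPM in siControl, against 141, 124.3 and 128 CPM in siMondoA. Its log2 fold change of 0.29 ± 0.12 did not pass the test (edgeR adjusted p = 0.106): the lowest siMondoA library and the highest control were almost level.

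The 2 IAP genes, which lie side by side, differed in size of change. BIRC2 had 74.0, 93.0 and 82.2 CPM in siControl, against 119.5, 130.1 and 141 CPM in siMondoA (0.65 ± 0.15, edgeR adjusted p = 0.0131). BIRC3 was at 9.95, 11.1 and 6.98 CPM and at 47.4, 29.1 and 48.0 CPM, a described log2 fold change of 2.16 ± 0.26. All siMondoA libraries lay above all controls in both genes. Per kilobase of exon, the ratio of BIRC3 to BIRC2 was 0.0811, 0.0719 and 0.0512 in siControl and 0.239, 0.135 and 0.204 in siMondoA.

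NFKB2, NFKBIE and TNFAIP3 kept their calls without any single library of the comparison. The call of RELB was lost without any library except siMondoA replicate 1 (adjusted p from 0.00981 to 0.0614 over the 6 omissions). That of NFKB1 was lost without siMondoA replicate 3 or without any siControl library (0.0159 to 0.0693), that of BIRC2 without siMondoA replicate 3 or siControl replicate 1 (0.0136 to 0.0555) and that of RELA without siControl replicate 2 (0.00621 to 0.0525). The 5 fibroblast markers, all detected, summed to 181 to 278 CPM in siControl and 92.4 to 179 CPM in siMondoA, and the 7 leukocyte markers, with PTPRC and CD3E undetected, to 56.9 to 69.8 and 72.6 to 93.3 CPM. Of 5 fibroblast markers tested, PDGFRB fell (means of 28.6 and 7.50 CPM, edgeR adjusted p = 0.000782). Of 4 leukocyte markers tested, CD68 rose (20.8 to 43.5 CPM, edgeR adjusted p = 0.00178), while CD14 (24.9 to 17.97 CPM, 0.0233) and CSF1R (1.40 to 0.318 CPM, 0.0105) fell. Of 7 epithelial markers tested, CDH1 rose (5.97 to 30.8 CPM, edgeR adjusted p = 0.00215) and MUC1 fell (7.63 to 4.77 CPM, 0.0469). The part of these markers in these results was not tested.

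**Figure D2:**
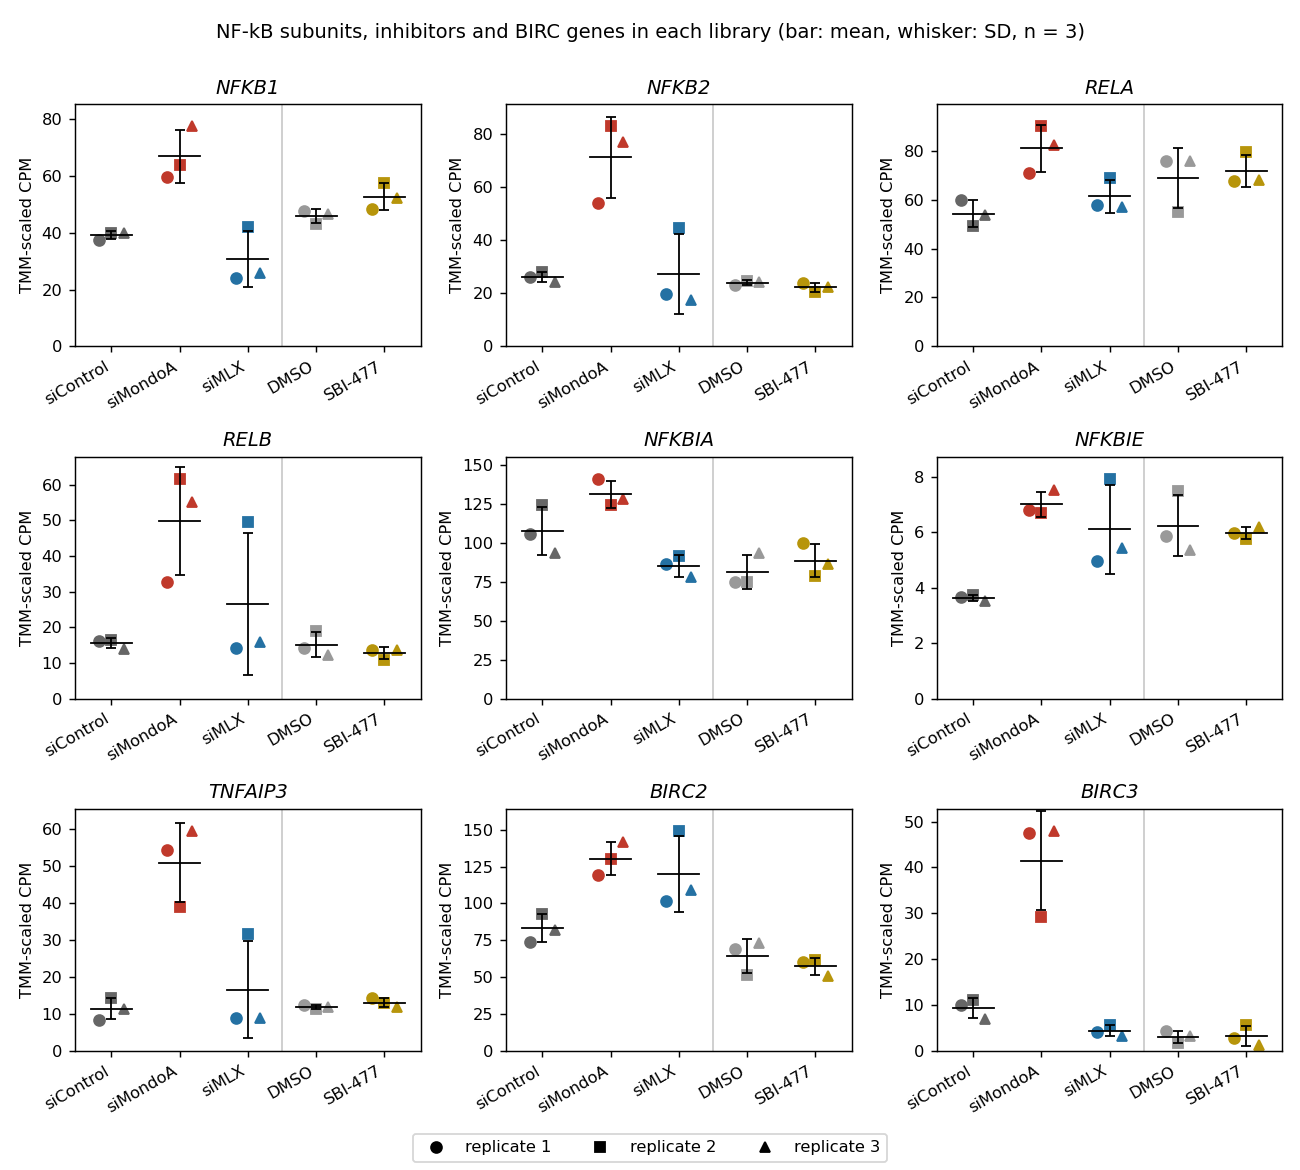
TMM-scaled CPM of each gene (y axes start at 0) in the 5 groups, with a symbol per library, the mean as a bar and the SD as a whisker (n = 3). All siMondoA libraries lie above all siControl libraries in every panel, siMLX replicate 2 is the highest siMLX library in every panel, and BIRC3 in siMLX stays at 3.28 to 5.62 CPM.

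After the siRNA against MLX, none of the 8 genes other than BIRC3 passed the test without a replicate block. Of all 13001 genes, 8.41% were called in either direction. The controls are those of the siMondoA comparison, so the values after the 2 siRNAs are set side by side and are not independent. BIRC3 was at 4.16, 5.62 and 3.28 CPM, each below the lowest control of 6.98 CPM (described log2 fold change -1.09 ± 0.28). NFKBIA was at 86.4, 91.5 and 77.8 CPM, each below the lowest control of 93.2 CPM, without a call (-0.34 ± 0.12, edgeR adjusted p = 0.117). BIRC2 was at 102, 149 and 109 CPM and NFKBIE at 4.95, 7.92 and 5.41 CPM, in each gene above every control. Their log2 fold changes were 0.53 ± 0.15 (edgeR adjusted p = 0.0584) and 0.75 ± 0.21 (0.0554). In this comparison same-numbered libraries deviated together from their group means (r of 0.35, 0.25 and 0.45). With the replicate number as a block BIRC2 and NFKBIE passed (edgeR adjusted p = 0.0199 and 0.0471), as they did with DESeq2 (0.0263 and 0.036). The authors' deposited table for siMLX lists an adjusted p of 0.00678 for BIRC2 but of 0.189 for NFKBIE, so the call of NFKBIE depends on the fit. The count over all genes went from 1094 to 1815 with the block. Thus 2 of these 8 genes lay wholly above and 1 wholly below the controls, against 16.5% and 16.9% of all genes. Of the 5 fibroblast markers, DCN (means of 1.78 and 12.1 CPM, edgeR adjusted p = 0.0027) and COL1A1 (31.6 and 60.4 CPM, 0.0385) rose and PDGFRB fell (28.6 and 12.4 CPM, 0.0133), and none of 4 leukocyte markers tested was called; their part was not tested.

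For the other 5 genes the siMLX libraries disagreed with each other. RELB was at 14.2, 49.6 and 16.0 CPM, so that replicates 1 and 3 lay near the controls and replicate 2 within the range of siMondoA (log2 fold change 0.78 ± 0.43, edgeR adjusted p = 0.277). NFKB2 was at 19.5, 44.3 and 17.3 CPM (0.06 ± 0.31, edgeR adjusted p = 0.927) and TNFAIP3 at 8.93, 31.7 and 8.99 CPM (0.54 ± 0.44, edgeR adjusted p = 0.477). NFKB1 was at 24.1, 42.2 and 25.8 CPM (-0.35 ± 0.20, edgeR adjusted p = 0.301), with replicates 1 and 3 below and replicate 2 above all controls. RELA was at 58.1, 69.2 and 57.0 CPM (0.18 ± 0.13, edgeR adjusted p = 0.429). Medians over the 9 genes, relative to the siControl mean, include BIRC3, whose movement was part of the choice, and are a description. They were -0.31 and -0.30 on the log2 scale in siMLX replicates 1 and 3 and 0.77 in replicate 2. In the siMondoA libraries they were 0.85 to 1.02.

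Without siMLX replicate 2 the picture changed for several genes. The log2 fold change of NFKB1 was then -0.65 ± 0.14 and passed (edgeR adjusted p = 0.0249; 3.68% of 13182 genes were called lower). NFKB2 was at -0.50 ± 0.19 (edgeR adjusted p = 0.136), TNFAIP3 at -0.35 ± 0.24 (0.427) and RELB at -0.04 ± 0.24 (0.951), the opposite side of 0 from the value over 3 libraries in each case. BIRC2 and NFKBIE were at 0.34 ± 0.12 and 0.51 ± 0.20, without a call (edgeR adjusted p = 0.13 and 0.158). BIRC3 was at -1.33 ± 0.30 and NFKBIA at -0.39 ± 0.14 (edgeR adjusted p = 0.112). The lower levels of BIRC3 and NFKBIA were thus present with and without this library.

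**Figure D3:**
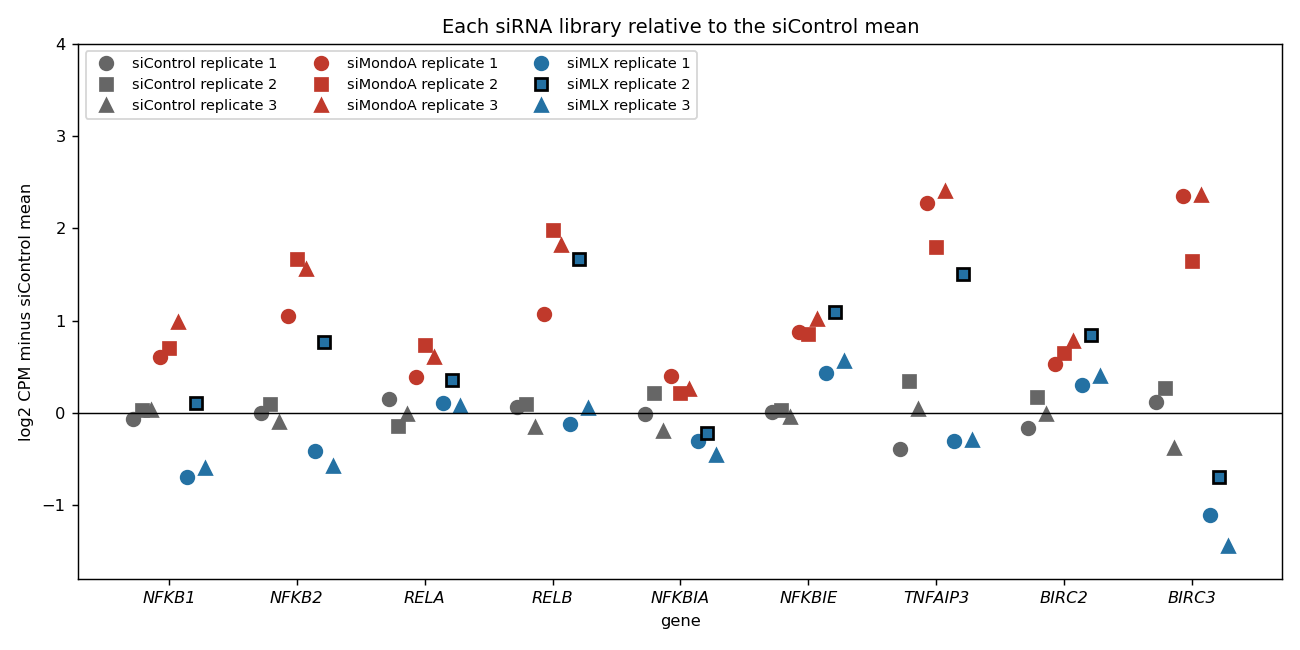
Log2 CPM of each gene in each siRNA library minus the siControl mean (y axis), by gene (x axis), with a colour per group and a symbol per replicate; siMLX replicate 2 has a black outline. This library lies within or above the siMondoA libraries for RELB, NFKBIE and BIRC2, between siControl and siMondoA for NFKB1, NFKB2, RELA and TNFAIP3, and below the siControl mean for NFKBIA and BIRC3.

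Set directly against each other, the 2 knockdowns differed in 4 of the 8 genes, all higher with siMondoA, against 6.66% of all genes tested in that direction. NFKB1 was higher by 1.12 ± 0.20 on the log2 scale (edgeR adjusted p = 0.00668), NFKB2 by 1.39 ± 0.31 (0.0177), NFKBIA by 0.62 ± 0.12 (0.0111) and TNFAIP3 by 1.62 ± 0.43 (0.0347). RELA (0.40 ± 0.13, edgeR adjusted p = 0.0664), RELB (0.90 ± 0.43, 0.171), NFKBIE (0.20 ± 0.21, 0.550) and BIRC2 (0.12 ± 0.15, 0.628) did not pass. BIRC3 differed by a described 3.25 ± 0.27. In 5 of these 8 genes every siMondoA library lay above every siMLX library, against 14.9% of all genes. In NFKBIA the siMondoA libraries held 124.3 to 141 CPM and the siMLX libraries 77.8 to 91.5 CPM. In BIRC2 the ranges overlapped, with siMLX replicate 2 the highest of the 6. Without siMLX replicate 2, RELB (1.72 ± 0.25, edgeR adjusted p = 0.00141) and RELA (0.50 ± 0.13, 0.0244) passed as well. The calls of NFKB2 and TNFAIP3 were lost without siMondoA replicate 3, siMLX replicate 1 or siMLX replicate 3, that of NFKB2 also without siMondoA replicate 2 (highest adjusted p = 0.0671 and 0.111), and both with only the 6 libraries compared in the fit (0.0637 and 0.089). That of NFKBIA was lost without siMLX replicate 3 (0.0517). Of the fibroblast and leukocyte markers, DCN (2.11 CPM with siMondoA and 12.1 CPM with siMLX, edgeR adjusted p = 0.00297), COL1A1 (34.3 and 60.4 CPM, 0.0466) and CD14 (17.97 and 25.6 CPM, 0.0292) were lower with siMondoA, and CD68 was higher (43.5 and 26.6 CPM, 0.0163). Of 7 epithelial markers tested, 1 was called higher with siMondoA. CDH1 averaged 30.8 CPM with siMondoA and 2.59 CPM with siMLX. The part of these markers was not tested.

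SBI-477 was not accompanied by a detectable change in any of the 9 genes as labelled. No gene of 14023 passed edgeR's test (0%). Genes at an unadjusted p under 0.05 numbered 409, a smaller share of the genes tested than that threshold. DESeq2 called none either, with 444. Without the libraries numbered 2, 2575 of 14232 genes passed edgeR's test and 4908 had an unadjusted p under 0.05. NFKB2 was at 22.9, 24.6 and 24.2 CPM in DMSO and at 23.9, 20.3 and 22.1 CPM in SBI-477 (log2 fold change -0.12 ± 0.11). TNFAIP3 was at 12.4, 11.3 and 11.9 and at 14.3, 12.9 and 11.8 CPM (0.13 ± 0.14). The levels of both genes in all 6 drug libraries lay below every siMondoA library, although the experiments were scaled separately.

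RELB was at 14.2, 19.0 and 12.2 CPM in DMSO and at 13.7, 10.8 and 13.7 CPM in SBI-477 (-0.24 ± 0.20). NFKBIA was at 74.7, 75.1 and 93.7 and at 100.04, 78.9 and 86.7 CPM (0.13 ± 0.14). NFKBIE was at 5.85, 7.48 and 5.37 and at 5.95, 5.74 and 6.19 CPM (-0.06 ± 0.19). In these 3 genes the groups overlapped. NFKB1, at 47.8, 43.2 and 46.6 CPM in DMSO and at 48.4, 57.6 and 52.2 CPM in SBI-477, was the only one of the 9 whose groups did not overlap, by a narrow margin (0.20 ± 0.11; 4.76% of genes did so upward). All 9 genes had an edgeR adjusted p of 1.00.

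The libraries numbered 2 stood at opposite extremes of the 2 groups in the remaining 3 genes and in several of those above. NFKB1 had its lowest DMSO and highest SBI-477 value in replicate 2. NFKB2, RELB and NFKBIE had their highest DMSO and lowest SBI-477 values there. BIRC3 was at 4.29, 1.69 and 3.19 CPM in DMSO and at 2.77, 5.57 and 1.33 CPM in SBI-477, so that the lowest vehicle library and the highest drug library were both replicate 2 (log2 fold change 0.07 ± 0.52). RELA, at 75.8, 55.0 and 76.1 and at 67.9, 79.5 and 68.3 CPM, and BIRC2, at 69.3, 51.3 and 72.9 and at 60.2, 61.4 and 50.7 CPM, likewise had their lowest DMSO value and highest SBI-477 value in replicate 2. Their log2 fold changes were 0.06 ± 0.15 and -0.17 ± 0.16. Without that pair of libraries BIRC2 fell by 0.36 ± 0.10 on the log2 scale (edgeR adjusted p = 0.0397), in a fit in which 9.02% of 14232 genes were called lower. BIRC3 was then at -0.83 ± 0.33 (edgeR adjusted p = 0.109) and RELA at -0.16 ± 0.08 (0.219), without a call, and the other 6 genes lay between -0.03 and 0.15. With 2 libraries a group this rests on a small sample. The authors' deposited table lists -1.14 for BIRC3 (adjusted p = 0.00333), -0.32 for BIRC2 (0.0424) and -0.26 for RELA (0.0913) after SBI-477, and no adjusted p under 0.05 for the other 6.

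**Figure D4:**
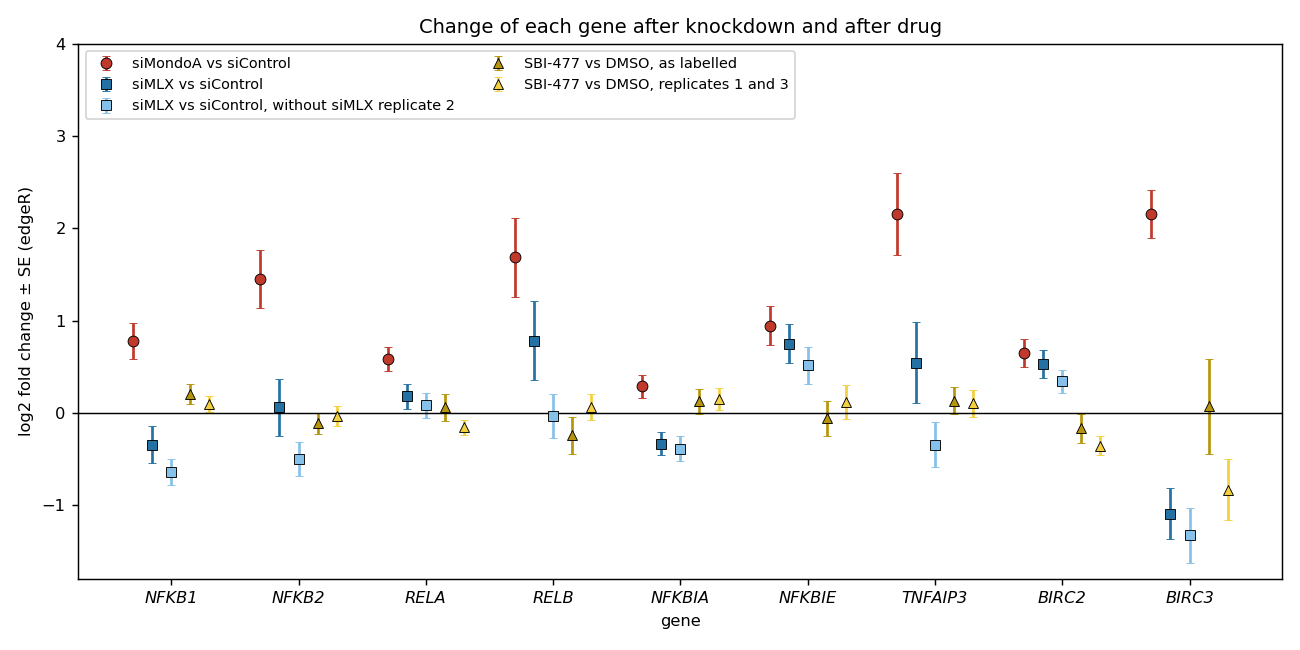
Log2 fold change of each gene (edgeR, bars are the SE) after siMondoA, after siMLX with and without siMLX replicate 2, and after SBI-477 with and without the libraries numbered 2. The siMondoA points lie above 0 for every gene, from 0.29 to 2.16, and the SBI-477 points as labelled stay between -0.24 and 0.20.

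The SBI-477 and siMondoA effects were compared directly as a difference of 2 log2 fold changes in 1 fit of 12 libraries. The SBI-477 effect was lower for 6 of the 8 genes other than BIRC3, against 5.65% of the 14065 genes tested. The difference was -2.01 ± 0.27 for TNFAIP3 (edgeR adjusted p = 0.00107), -1.91 ± 0.32 for RELB (0.00336) and -1.55 ± 0.21 for NFKB2 (0.00111). It was -0.99 ± 0.26 for NFKBIE (0.0263), -0.80 ± 0.20 for BIRC2 (0.0235) and -0.56 ± 0.17 for NFKB1 (0.0479). RELA (-0.51 ± 0.20, edgeR adjusted p = 0.130) and NFKBIA (-0.14 ± 0.19, 0.689) did not pass, and BIRC3 is described at -2.08 ± 0.58. Agent, depth and experiment differ together between the 2 effects and cannot be told apart. Without the libraries numbered 2 of the drug experiment, the 6 genes also passed, and RELA did too (-0.71 ± 0.17, edgeR adjusted p = 0.0165). Omitting single libraries ended the calls of NFKB1, NFKBIE and BIRC2 in 9, 6 and 5 of 12 omissions, and those of TNFAIP3, RELB and NFKB2 in none.

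Levels between genes can be set side by side only per length, here as CPM per kilobase of exon. In siControl NFKBIA stood highest at 45.4 ± 6.54 (SD, n = 3), followed by BIRC2 at 18.3 ± 2.096, RELA at 9.94 ± 0.994 and NFKB1 at 6.25 ± 0.232. NFKB2 (5.79 ± 0.399) overlapped with NFKB1 above it and with RELB (5.12 ± 0.470) below it. TNFAIP3 followed at 2.25 ± 0.569, and NFKBIE (1.41 ± 0.0390) and BIRC3 (1.24 ± 0.282) overlapped at the bottom. In siMondoA NFKBIA (55.3 ± 3.74) and BIRC2 (28.8 ± 2.42) kept the first places. RELB (16.4 ± 4.99) and NFKB2 (15.9 ± 3.39) then stood beside RELA (14.9 ± 1.78) and the 3 genes overlapped with one another. TNFAIP3 (10.1 ± 2.11) overlapped with NFKB1 (10.7 ± 1.49), and NFKBIE (2.71 ± 0.178) was lowest, below BIRC3 (5.52 ± 1.43).

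In siMLX, DMSO and SBI-477 NFKBIA had the highest mean (35.9 ± 2.92, 34.2 ± 4.56 and 37.3 ± 4.51 CPM per kilobase), although in siMLX it overlapped with BIRC2 (26.5 ± 5.63), and BIRC3 the lowest (0.579 ± 0.157, 0.407 ± 0.173 and 0.429 ± 0.287). The per-length ratio of RELB to RELA was 0.485, 0.605 and 0.464 in siControl and 0.834, 1.23 and 1.20 in siMondoA. In siMLX it was 0.441, 1.29 and 0.505, again with replicate 2 apart. In DMSO it was 0.336, 0.623 and 0.287 and in SBI-477 0.364, 0.245 and 0.361. The ratio of TNFAIP3 to NFKBIA was 0.0375 to 0.0575 in siControl and 0.147 to 0.218 in siMondoA, without overlap.

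Of 97 other genes of the pathway in 8 lists, 89 were tested after siMondoA. Of these 34 rose and 5 fell, with a median log2 fold change of 0.41. Over all genes tested 14.2% rose and 12.9% fell. Among the 13 receptors tested, 8 rose and 1 fell. TNFRSF12A, the TWEAK receptor of the non-canonical branch, rose by 1.76 ± 0.37 on the log2 scale (156 to 530.3 CPM, edgeR adjusted p = 0.00781) and TNFRSF1B, a TNF receptor, by 1.00 ± 0.15 (0.00166). TNFRSF10B, a TRAIL death receptor, rose by 0.79 ± 0.14 and the interleukin co-receptor IL1RAP by 0.85 ± 0.13 (edgeR adjusted p = 0.00398 and 0.00243). TNFRSF1A, the main TNF receptor, was the receptor that fell, by 0.49 ± 0.11 (edgeR adjusted p = 0.0103).

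Among 7 ligands tested, 2 rose and 2 fell. IL1B rose from a mean of 64.2 to 884 CPM (edgeR adjusted p = 0.00603) and IL1A from 2.28 to 90.3 CPM (0.00316), while TNFSF10, which encodes TRAIL, fell by 2.23 ± 0.43 on the log2 scale (0.00544). Downstream of the receptors, none of the 14 adaptors and ubiquitin ligases was called. Of 12 kinases and their partners 4 rose, among them RIPK2 (0.91 ± 0.19), IKBKG, the regulatory subunit of IKK (0.59 ± 0.13), and TAB2 (0.62 ± 0.19), and the catalytic subunit IKBKB fell by 0.50 ± 0.15 (edgeR adjusted p = 0.00912, 0.00972, 0.0323 and 0.0313).

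Other brakes on the pathway moved upward where they moved: TNIP1, a partner of TNFAIP3, rose by 0.89 ± 0.16, TNIP2 by 0.49 ± 0.13 and the ubiquitin ligase ITCH by 0.44 ± 0.13, 3 of 8 tested (edgeR adjusted p = 0.00372, 0.0191 and 0.0303). In the Rel and IkB families NFKBIB, a further IkB, rose by 1.14 ± 0.21 and the atypical member BCL3 by 0.69 ± 0.20 (0.00436 and 0.0269), 2 of 5 tested. Of 22 textbook NF-kB targets outside the 9 genes, 13 rose and none fell, with a median of 1.02. They included IL6 (11.6 to 187 CPM, edgeR adjusted p = 0.00588), IER3, a stress-induced survival gene (114 to 494 CPM, 0.00525), and the chemokines CXCL1 (37.5 to 140.5 CPM, 0.00381) and CCL20 (0.291 to 28.9 CPM, 0.00272). Reads of CXCL1 may be shared with its close paralogs. CCL20 was close to 3 counts per library in siControl, so no fold is given. Of 8 other IAP genes and antagonists, XAF1, an IAP antagonist, rose by 1.62 ± 0.35 and BIRC5 (survivin) by 0.61 ± 0.13, while BIRC7 fell by 1.58 ± 0.42 (edgeR adjusted p = 0.00882, 0.00962 and 0.0198).

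After siMLX, against the same controls, 6 of the 89 genes rose and 4 fell (3.72% and 4.69% of all genes tested). BCL3 rose by 1.05 ± 0.20, IL1RAP by 1.02 ± 0.13 and the adaptor TRAF5 by 0.59 ± 0.13 (edgeR adjusted p = 0.0126, 0.00273 and 0.0205). The cytokine gene IL6 had 11.6, 14.96 and 8.22 CPM without knockdown, against 24.3, 214 and 25.5 CPM after siMLX (edgeR adjusted p = 0.0405), the chemokine gene CXCL3 at 0.889, 3.80 and 2.22 and at 4.69, 47.2 and 8.92 CPM (0.0451), and IL1A at 2.13, 2.87 and 1.83 and at 4.60, 51.0 and 9.30 CPM (0.0456). All 3 rose, and in each siMLX replicate 2 stood far above the other siMLX libraries. Reads of CXCL3 may be shared with its close paralogs. Without that library IL6 passed (edgeR adjusted p = 0.0243), whereas CXCL3 (0.107) and IL1A (0.121) did not, and 4 of 90 tested genes of the lists rose and 4 fell (2.59% and 3.68% of all genes). IKBKB fell by 0.81 ± 0.15, TNFSF10 by 2.22 ± 0.43 and TNFRSF1B by 0.61 ± 0.15 (edgeR adjusted p = 0.0118, 0.0133 and 0.033). TNFRSF1B thus stood above siControl after siMondoA and below it after siMLX, at means of 27.2, 54.5 and 17.8 CPM in siControl, siMondoA and siMLX. The direct comparison gave 1.61 ± 0.15 (edgeR adjusted p = 0.00035), and in it 16 of the 89 genes were higher and 1 was lower with siMondoA (6.66% and 6.21% of all genes tested). After SBI-477 none of 90 tested genes of these lists was called, and their median was 0.00. Without the libraries numbered 2, 13 of 91 rose and 14 fell (9.07% and 9.02% of all genes), with a median of 0.03.

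Over the 9 siRNA libraries, log2 CPM of pairs of the 9 genes correlated at 0.21 to 0.97 (Pearson's r, median 0.80 over 36 pairs). The libraries are shared by all pairs and the group means enter each value, so these are descriptions. NFKBIE and BIRC2 were the most alike (0.97), whereas BIRC3 followed its neighbour BIRC2 less closely (0.37) than it followed NFKBIA (0.94) or NFKB1 (0.93). Among 10861 genes that averaged 4 CPM or more, those most like BIRC3 were BTG3, IL13RA1, GLCCI1, AGTRAP and AKR1B1, all at 0.97. BTG3 averaged 11.3, 22.3 and 9.91 CPM in siControl, siMondoA and siMLX. Those most like NFKB2 were TJP1, RBM34, COQ10B, ARID5B and BCL2L2, at 0.99. Those most like NFKBIA were KBTBD2, AKR1B1, PSMD13, RBM18 and RTFDC1, with KBTBD2 at 0.96.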

How the data were processed

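RNA-seq of 15 PSN-1 libraries was used in 5 groups of 3, set by their titles. The authors deposited 1 table per experiment with a raw count per gene symbol and library, per the file headers. Beside the counts, the authors deposited log2 fold changes and p-values with adjusted values. Their 3 columns of means over libraries were not used. Per the submitters' processing notes, TopHat2 2.1.0 and HTSeq 0.6.1 were among the tools, and hg38 and mm10 among the builds. Use of strand in counting is not stated there. Exons of RELA and TNFAIP3 overlap antisense genes that have no row of their own, so reads of the 2 strands may be pooled there. With reads of 25 bases, 6.71% of the 25-base words of NFKB2 and at most 2.63% of those of the other members occur in another gene. BIRC2 and BIRC3 share 65 such words.

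Counts were analysed with edgeR 4.0.16 in R 4.3.3 (filterByExpr, TMM, quasi-likelihood test). The 9 siRNA libraries entered 1 fit, the 6 drug libraries another, and 12 libraries the difference of effects. Benjamini-Hochberg adjusted p-values over all genes had a threshold of 0.05, and the SE is the absolute log2 fold change over the square root of F. Correlations used log2 CPM with a prior count of 2. Lengths are unions of GENCODE v29 exons. Alternatives were DESeq2 1.42.0, its size factors in edgeR, no filter, a replicate block, only the groups compared, and leaving out libraries; where a group kept 2 or fewer libraries, its spread was pooled with the others. The replicate numbers pair siControl with siMLX, by the deviations of same-numbered libraries from their group means (r of 0.35, 0.25 and 0.45, all over 0.1). In the other comparisons they did not meet this rule. On simulated counts, 77% to 84% of 2-fold changes were recovered in the 4 comparisons of groups and 49% in the difference of effects. Of the calls there, 5.35% to 8.04% were false in the comparisons of groups and 9.38% in the difference of effects. The simulation held no exchanged labels.

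Members and lists were chosen with earlier results of these data known. All 9 members are named in every comparison. Of each other list, up to 4 called genes with the smallest adjusted p and a mean of at least 4 CPM could be named. TNFRSF1A and the cell markers are named outside this rule, after their values were seen. Replicates differed by more than sampling noise (lowest ratio of chi-square to degrees of freedom 7.93).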

Additional observations from a re-analysis of the deposited data

Results flagged for a closer look

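For 6 of the 8 genes other than BIRC3 a test of the difference itself set the SBI-477 effect below the siMondoA effect. The differences on the log2 scale, from edgeR's interaction term, were -2.01 for TNFAIP3, -1.91 for RELB, -1.55 for NFKB2, -0.99 for NFKBIE, -0.80 for BIRC2 and -0.56 for NFKB1 (adjusted p = 0.00107, 0.00336, 0.00111, 0.0263, 0.0235 and 0.0479). They compare separate experiments, and one of these has libraries whose labels and deposited comparison differ. Groups of 3 libraries were not tested for a library far from the others.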

How the results depend on the processing

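Counts of genes called ranged from 1745 to 3884 after siMondoA (3532 with all libraries), from 254 to 833 after siMLX (1094), from 670 to 2970 between the 2 siRNAs (1673), from 0 to 2575 after SBI-477 (0) and from 783 to 2397 for the difference of the SBI-477 and siMondoA effects (1462) when libraries were left out. Of the 8 genes other than BIRC3, 4 to 7 (7 with all libraries), 0 to 1 (0), 1 to 6 (4) and 3 to 7 (6) were then called in the siMondoA, siMLX and direct siRNA comparisons and the difference of effects, and of the 9 genes 0 to 1 (0) after SBI-477. With DESeq2, 1686 genes and 2 of the 8 were called after siMLX. With the replicate block, 4551 genes were called after siMondoA, and 1815 genes and 2 of the 8 after siMLX. It called 2606 genes between the siRNAs, and 513 genes and 3 of the 8 for the difference of effects. The block with siMLX replicate 2 left out, chosen after seeing the data, called 992 genes and 1 of the 8 (826 genes and 1 of the 8 without that library and no block). With only the groups compared in the fit, 706 genes and 2 of the 8 were called between the siRNAs. After siMLX, NFKB2 turned negative with the block (-0.037), and when libraries were left out NFKB2 ranged from -0.50 to 0.30, RELB from -0.035 to 1.08 (-0.035 without siMLX replicate 2) and TNFAIP3 from -0.35 to 0.84 (-0.345 without siMLX replicate 2). With the block and without siMLX replicate 2, NFKB2 was -0.41 and TNFAIP3 -0.36. After SBI-477, BIRC3 turned negative with the block (-0.087), and when libraries were left out RELA ranged from -0.16 to 0.14, RELB from -0.38 to 0.062, NFKBIE from -0.16 to 0.12 and BIRC3 from -0.83 to 0.44. The cause of these changes was not tested, except that leaving out libraries leaves fewer samples. Of 558 values of single genes under alternatives, 478 kept direction and side of the threshold (for BIRC3 after siRNA, which has no test, moved by less than the SE), 46 lost the call, 15 gained it, 16 changed sign and 3 of BIRC3 moved further. Same-numbered libraries deviated together at correlations of -0.14 to 0.63 over 9 siRNA pairs, 7 of them best with their own number, and of -0.58 to -0.26 over 3 drug pairs, so outside the siMLX comparison the block rests on a shared number only. Depth limited BIRC3 most, at 1.33 to 5.62 CPM in siMLX and drug libraries.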
